A study of Saccharomyces cerevisiae with 2 samples.

Results

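The genes of glutamate, glutamine and asparagine metabolism described here are 10 open reading frames of the budding yeast Saccharomyces cerevisiae, taken by name from a table of 6207 features. They are ASN1 (YPR145W), ASN2 (YGR124W), GLN1 (YPR035W), GLT1 (YDL171C), GDH1 (YOR375C), GDH2 (YDL215C), GDH3 (YAL062W), AAT1 (YKL106W), AAT2 (YLR027C) and ASP1 (YDR321W). The genes were picked with their ratios known, so their values are given as a description and carry no test. RNA of a mid2 mutant treated for 4 h with Congo Red at 30 µg/ml was hybridised against RNA of cells from the same culture left untreated, both grown in YEPD, a rich medium, at 24 °C. The mutant derives from BY4741, a common haploid strain (MATa), and lacks Mid2, a sensor of the cell wall integrity pathway, in the treated and the untreated cells alike. Congo Red is a dye that binds wall polysaccharides and disturbs wall assembly. There were 2 arrays with swapped dyes, treated RNA carrying Cy3 on array 1 and Cy5 on array 2, so array and dye orientation cannot be told apart. The labels describe a plan of 2 cultures, each with a dye swap, which makes 4 arrays, and do not say which of these the 2 arrays are. If they hold the RNA of 1 culture, each SD and n = 2 below measures technical spread only.

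Glutamate and glutamine carry most of the nitrogen that a yeast cell builds into other molecules. Ammonium is joined to 2-oxoglutarate by the NADP-dependent glutamate dehydrogenases Gdh1 and Gdh3, and to glutamate by glutamine synthetase, Gln1. Glutamate synthase, Glt1, moves the amide nitrogen of glutamine back onto 2-oxoglutarate, and the NAD-dependent Gdh2 releases ammonium from glutamate. The aspartate aminotransferases Aat1 and Aat2 pass the amino group of glutamate to oxaloacetate, the asparagine synthetases Asn1 and Asn2 turn aspartate into asparagine with glutamine as the donor, and the asparaginase Asp1 reverses that step.

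The values are log2 ratios, 1 per feature and array, and a positive ratio is read as higher with Congo Red. That reading is a working choice, settled neither by the labels nor by the values. The columns correlated positively across 2738 features although the dyes were swapped (r = 0.48 by Pearson and rho = 0.34 by Spearman, over genes, which are no independent replicates), as ratios already turned to treated over untreated would. Gene-wise dye bias in ratios of fixed dye order would give a positive correlation as well, and the treatment would then lie in the difference between the arrays. Values were listed for 45.6% of features on array 1, for 55.4% on array 2 and for 44.1% on both. The median of all features was −0.28 on array 1, −0.23 on array 2 and −0.24 for the mean, so a gene near −0.24 lies at the middle of the arrays. Ratios on array 1 were more widely spread (SD 0.963 over the features with both values, against 0.571 on array 2). A ratio gives no level, so the mating type could not be checked from it; 4 of 6 MATa marker genes and 1 of 4 MATalpha marker genes had a value on both arrays. In bulk RNA, fewer cells with a transcript and less of it per cell cannot be told apart.

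Of the 10 genes, 7 had a value on both arrays, 2 on array 2 only, and ASN1 on neither. ASN2 stood far above the others, followed by AAT2, GDH1, GLN1 and GDH3, while ASP1 and GLT1 lay near or below the middle of the arrays. The median of the 7 mean ratios was 0.49, against −0.24 over all 2738 features. It was 0.92 on array 1 and 0.06 on array 2. Ratios were positive on both arrays for 4 of the 7 genes, against 15.9% of all features, and above the array median on both arrays for 5 of the 7, against 31.6% of all features. The limits of size used below ask for a mean of 2-fold or more and for 1.5-fold or more, in the same direction, on each array. They were met on the positive side by 2 of the 7, ASN2 and AAT2, against 4.13% of all features. On the negative side they were met by 0 of the 7, against 2.81% of all features. These shares come from the ratios the genes were picked on and nothing is read from them.

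**Figure D1:**
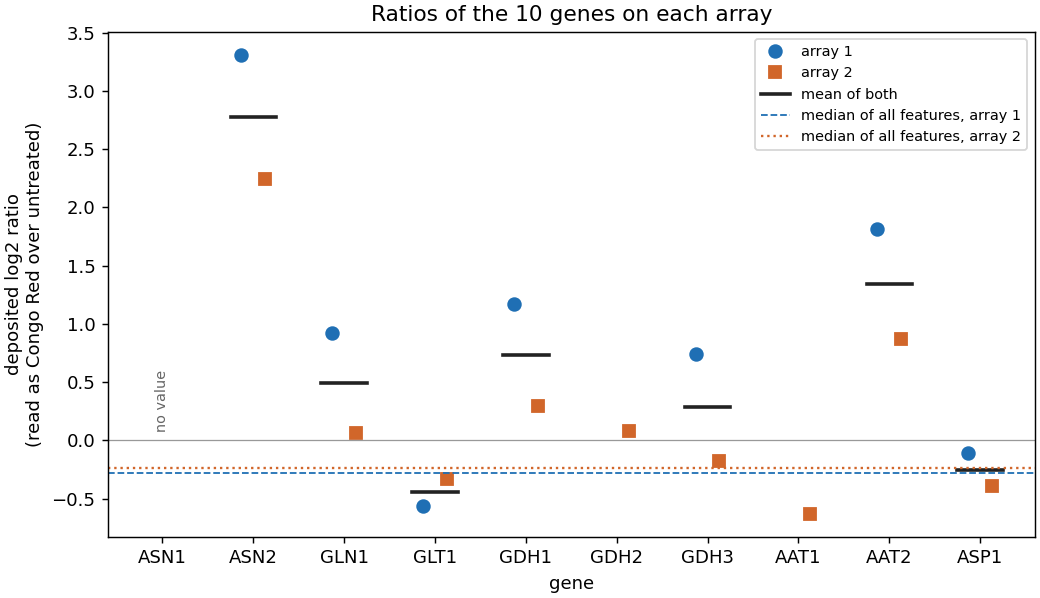
Deposited log2 ratio (vertical axis) of each of the 10 genes, with a circle for array 1, a square for array 2 and a bar for the mean where both exist; the dashed and dotted lines are the medians of all features on array 1 and array 2. ASN2, GLN1, GDH1, GDH3 and AAT2 lie above both lines with the circle higher than the square, GLT1 lies below both lines, GDH2 and AAT1 have array 2 only, and ASN1 has no value.

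ASN2, which encodes 1 of the pair of asparagine synthetases, had a log2 ratio of 3.31 on array 1 and 2.24 on array 2, which are ratios of 9.90 and 4.74. Both values lay in the uppermost part of their array, at rank 15 of the 2832 values of array 1 and rank 22 of the 3440 of array 2. The mean was 2.78 ± 0.75 (SD, n = 2), rank 10 of 2738 features. ASN1, the other synthetase gene of the pair, encodes a closely similar enzyme and had no value on either array. Why a cell of the table is empty is not given in the sources used here, so nothing can be said of ASN1. Transcripts of such close copies may hybridise to each other's spot, and what share of the ASN2 ratio came from ASN1 RNA was not tested. ASP1, the cytosolic asparaginase that breaks asparagine down, had −0.11 on array 1 and −0.39 on array 2. Its mean of −0.25 ± 0.20 (SD, n = 2) was at the median of all features, on the 49th percentile, and its values lay on opposite sides of the array medians. The ratios of ASN2 and ASP1 did not overlap. With ASN2 at ranks 15 and 22 of its arrays and ASP1 near the median, that gap follows from where each lay. It is not read as a contrast of synthesis and breakdown.

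AAT2, the gene of the cytosolic aspartate aminotransferase that supplies aspartate, had log2 ratios of 1.82 on array 1 and 0.87 on array 2. These correspond to ratios of 3.53 and 1.83, and they lay on the 97th percentile of array 1 and the 96th of array 2. With a mean of 1.34 ± 0.67 (SD, n = 2) it ranked 93rd of 2738 features. AAT1, the mitochondrial isozyme, gave −0.63 on array 2, at the 16th percentile, and no value on array 1. On array 2, the only array that can be compared, AAT2 thus lay 1.5 above AAT1 on the log2 scale, with no replicate for that gap.

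The NADP-dependent glutamate dehydrogenases form a second pair of close copies. GDH1, the main isozyme of cells growing on glucose, had 1.17 on array 1 and 0.29 on array 2, with a mean of 0.73 ± 0.62 (SD, n = 2). GDH3, whose isozyme is better known from growth on nonfermentable carbon and stationary phase, had 0.74 on array 1 and −0.18 on array 2, with a mean of 0.28 ± 0.65 (SD, n = 2). Both were above the array median on each array, GDH3 on array 2 by only 0.06. GDH1 lay above GDH3 by 0.43 on array 1 and by 0.47 on array 2, a gap smaller than the difference of either gene between the arrays. Their sequences are close enough that cross-hybridisation cannot be separated from the ratios here. GDH2, the NAD-dependent enzyme that works in the direction of glutamate breakdown, had 0.08 on array 2, at the 77th percentile, and no value on array 1.

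GLN1 and GLT1 encode the enzymes that together make up the other route from ammonium to glutamate, and their ratios lay apart. GLN1, glutamine synthetase, had 0.92 on array 1 and 0.06 on array 2, ratios of 1.89 and 1.05, with a mean of 0.49 ± 0.61 (SD, n = 2). Its ratio on array 2 was thus close to equal levels, and stood on the 76th percentile of that array. GLT1, glutamate synthase, had −0.57 on array 1 and −0.33 on array 2, with a mean of −0.45 ± 0.17 (SD, n = 2). It was the lowest of the 7 genes, on the 26th percentile of the mean, and the only one of the 7 below the median on both arrays. Relative to the median of all features its mean was −0.21.

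The order of the 7 means, from high to low, was ASN2, AAT2, GDH1, GLN1, GDH3, ASP1 and GLT1. ASN2 and AAT2 were separated by 1.49 on array 1 and 1.37 on array 2, and the values of the 2 genes did not overlap. The genes were picked with their ratios known, so nothing is read from that gap. AAT2 overlapped with GDH1 and with GLN1, the lower value of AAT2 (0.87) falling below the higher values of GDH1 (1.17) and GLN1 (0.92). GDH1, GLN1 and GDH3 overlapped with one another, as did GDH3 with ASP1 and ASP1 with GLT1. The first 5 genes stood in the same order on each array, and ASP1 and GLT1 changed places on array 2.

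**Figure D2:**
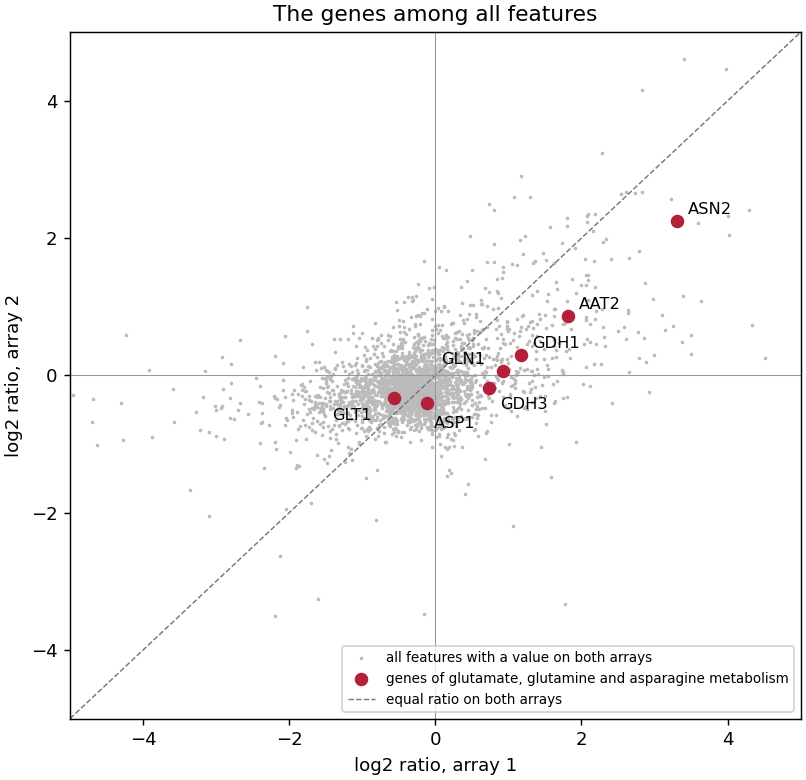
Log2 ratio on array 1 (horizontal axis) against array 2 (vertical axis) for features with a value on both, with the 7 genes of glutamate, glutamine and asparagine metabolism in red and the line of equal ratios dashed; 6 features lie outside the axes, which end at 5 in each direction. ASN2 stands at 3.31 and 2.24, and 6 of the 7 genes lie below the dashed line, GLT1 being the exception.

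Ratios were higher on array 1 than on array 2 for 6 of the 7 genes, against 41.6% of all features. Among features positive on both arrays that share was 62.3%, so a higher ratio on array 1 was common among features with raised ratios. For the 5 genes with the highest means, ASN2, AAT2, GDH1, GLN1 and GDH3, this difference was of like size, from 0.86 for GLN1 to 1.06 for ASN2. For ASP1 it was 0.28 and for GLT1 −0.24. Over all features its median was −0.12, with quartiles at −0.55 and 0.28. Over the 435 features positive on both arrays, among which GDH3 is not, the median was 0.16, with quartiles at −0.16 and 0.72. ASN2, AAT2, GDH1 and GLN1 lay above the upper quartile there too. The difference matters for the unsettled direction. Were the ratios never turned, that is Cy5 over Cy3 throughout, the sign of array 1 would have to be changed before averaging, and the mean ratios of ASN2, AAT2, GDH3, GDH1 and GLN1 would be −0.53, −0.47, −0.46, −0.44 and −0.43. GLT1 would stand at 0.12 and ASP1 at −0.14. Every value given here as read as never turned takes Cy5 over Cy3. The channel order is not given, and with Cy3 over Cy5 throughout these signs would be the opposite. Under that reading ASN2 would no longer stand apart, and 0 of the 7 genes would meet the limits of size.

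**Figure D3:**
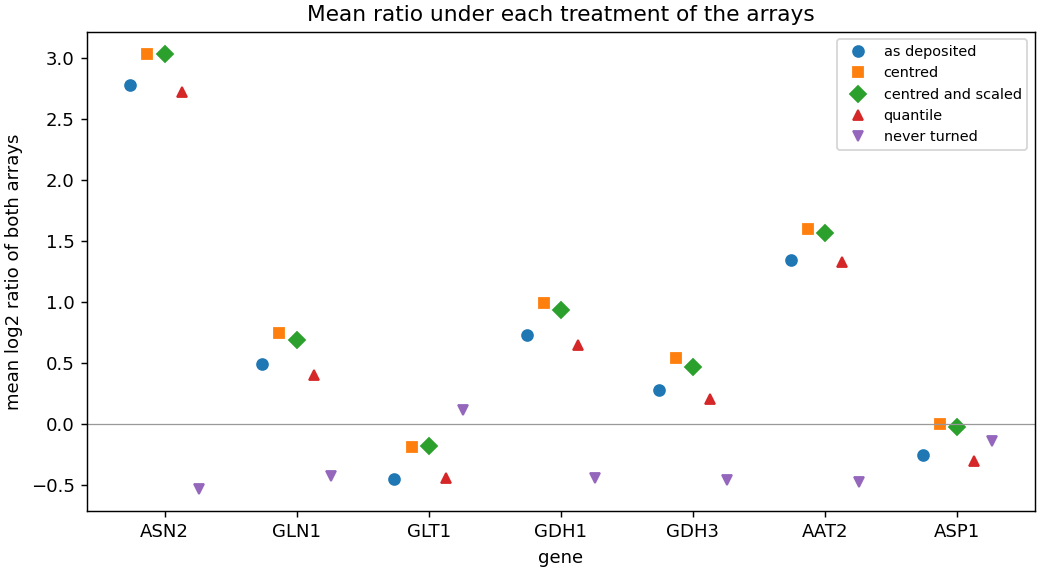
Mean log2 ratio of both arrays (vertical axis) for the 7 genes, as deposited, after centring, after centring and scaling, after quantile normalization, and read as never turned. For ASN2 the first 4 lie between 2.72 and 3.03 and the last at −0.53; centring puts ASP1 at 0.004.

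Genes that feed, use or control this part of metabolism were grouped in 10 lists of textbook pathways, 103 genes beside the 10, of which 52 had a value on both arrays, 14 on 1 array and 37 on none. The lists were written with earlier results of these data known, so their shares are a description and nothing is read from them. The 52 include the 4 near-identical copies of ASP3, each counted as a gene. The median of the 52 mean ratios was 0.09, against −0.24 over all features. Above the array median on each array were 27 of the 52 (31.6% of all features), and below it on each array were 3 (25.3% of all features). The limits of size were met by 6 on the positive side, ARO8, ACO1, IDP1, DED81, DPS1 and GUS1 (4.13% of all features), and by 0 on the negative side (2.81% of all features). Read as never turned, 0 of the 52 met them, and the 6 genes had means of −0.26, −0.36, −0.23, −0.25, −0.35 and −0.16 in the order given. In limma's moderated test of the mean against 0, 0 of the 52 and 0 of 2738 features (0%) had a Benjamini-Hochberg adjusted p under 0.05. The smallest adjusted p with limma was 0.123, and 8 of the 52 and 371 of all features (13.6%) had an unadjusted p under 0.05.

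The list named for the supply of 2-oxoglutarate, the carbon skeleton of glutamate, had a median of 0.19 over 10 of 18 genes. Not all of these are enzymes of supply. KGD1 and KGD2, of the enzyme that consumes 2-oxoglutarate, are 2 of the 10, with means of 0.09 each. The carriers ODC1, ODC2 and AGC1 had no value. Above the array median on both arrays were 8 of the 10, KGD1 among them (31.6% of all features), and 2 met the limits of size (4.13% of all features). Read as never turned, the median was 0.004, against 0.06 over all features. IDP1, the mitochondrial NADP-dependent isocitrate dehydrogenase, had 1.87 on array 1 and 1.41 on array 2. ACO1, aconitase, had 1.92 on array 1 and 1.20 on array 2. Both genes were high on each array, and ACO1 and AAT2 had like values on array 1. At the low end of the list stood IDH2, a subunit of the NAD-dependent isocitrate dehydrogenase, with a mean of 0.01 ± 0.16, and PYC1, a pyruvate carboxylase, with a mean of −1.33 ± 2.26 (SD, n = 2 each). PYC1 had −2.92 on array 1 and 0.27 on array 2, so its mean rests on array 1.

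Aminotransferases that take their amino group from glutamate had a median of 0.26 over 6 of 9 genes, with 5 of the 6 above the array median on both arrays (31.6% of all features), and a median of −0.02 read as never turned. ARO8, an aromatic aminotransferase, had 1.42 on array 1 and 0.89 on array 2 and met the limits of size, and its relative ARO9 had 0.64 on array 1 and 0.66 on array 2. The lowest were BAT1, the mitochondrial branched-chain aminotransferase, at 0.11 ± 0.03 and ALT2, related to alanine aminotransferase, at −0.14 ± 0.57 (SD, n = 2 each). ALT2 was the only 1 of the 6 with a negative mean, and its arrays differed in sign.

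Among the aminoacyl-tRNA synthetases that charge tRNA with these amino acids, 5 of 7 had values, with a median of 1.03, and of −0.16 read as never turned. DED81, the cytosolic asparaginyl-tRNA synthetase, had 2.17 on array 1 and 1.67 on array 2, and DPS1, the cytosolic aspartyl-tRNA synthetase, had 2.09 on array 1 and 1.39 on array 2. GUS1, the glutamyl-tRNA synthetase, had 1.18 on array 1 and 0.87 on array 2. These 3 of the 5 met the limits of size (4.13% of all features), so the synthetase gene for asparagine was not alone in being high. GLN4, the glutaminyl-tRNA synthetase, did not meet them, with 0.13 on array 1 and 0.28 on array 2. SLM5, the mitochondrial asparaginyl-tRNA synthetase, was lowest at −0.32 ± 0.46 (SD, n = 2).

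**Figure D4:**
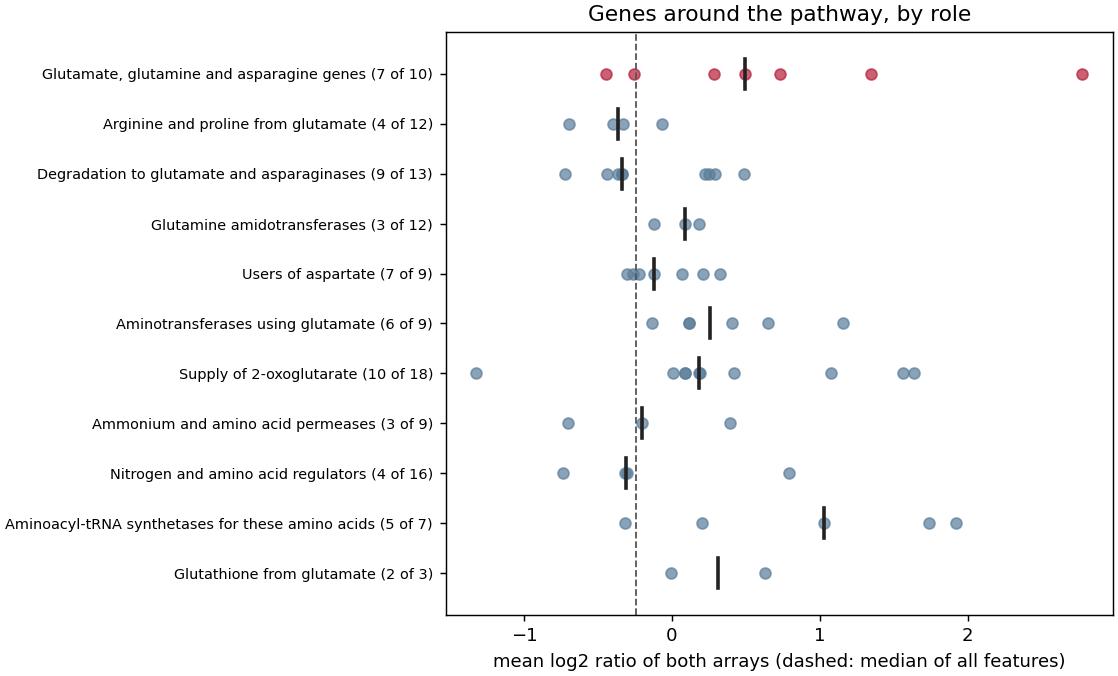
Mean log2 ratio of both arrays (horizontal axis) for each gene with a value on both, the 7 genes described here in the top row in red and the pathway lists below in blue, with the number measured of the number listed; short bars are medians and the dashed line is the median of all features, −0.24. The top row reaches from −0.45 to 2.78, and of the lists the synthetases have the highest median as deposited, 1.03; read as never turned their median is −0.16 and the permeases, at 0.70, are highest.

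Of the routes that lead away from glutamate and aspartate, arginine and proline synthesis had a median below that of all features, −0.24, as deposited. Read as never turned, its median was 0.26, against 0.06 over all features. The median of the users of aspartate, −0.12, lay above that of all features as deposited. Arginine and proline synthesis, which starts from glutamate, had a median of −0.36 over 4 of 12 genes. Above the array median on both arrays were 0 of the 4 (31.6% of all features), and below it on both was 1 (25.3% of all features). With array 1 left out, the median of the list was 0.04 above that of all features. Of the 4, PRO3, the last enzyme of proline synthesis, was highest at −0.07 ± 0.46 and ARG2, the first enzyme of ornithine synthesis, lowest at −0.70 ± 0.48 (SD, n = 2 each). A further 3 had a value on array 2 only, from −1.73 for ARG4 to 0.23 for CPA1. Genes that use aspartate for threonine, methionine, purines, pyrimidines and arginine had a median of −0.12 over 7 of 9 genes, and of −0.20 read as never turned. Of the 7, 3 lay above the array median on both arrays (31.6% of all features) and 0 below it on both (25.3% of all features). THR1, homoserine kinase, and HOM6, homoserine dehydrogenase, were highest at 0.32 ± 0.79 and 0.21 ± 0.37, and THR4, threonine synthase, and ADE1, of purine synthesis, lowest at −0.26 ± 0.04 and −0.31 ± 0.52 (SD, n = 2 each). All 7 had means between −0.31 and 0.32, within the range of the 7 genes described above.

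Only 3 of 12 glutamine amidotransferases had both values, with a median of 0.09. A further 6 had a value on array 2 only, from −0.14 for ADE4 to 1.11 for QNS1. HIS7, of histidine synthesis, gave 0.18 ± 0.19 and URA2, the first enzyme of pyrimidine synthesis, −0.12 ± 0.29 (SD, n = 2 each). GFA1, which uses glutamine to make glucosamine phosphate, the precursor of chitin, had no value on either array. The genes of degradation had a median of −0.33 over 9 of 13, GDH2 being counted in the 13. Of these 9, 4 are close copies of ASP3, the other asparaginase, and the median is the value of 1 of them, ASP3-3. The copies share their target but count as 4 genes in the values given for this list. Of the other genes, CAR1, DUR1,2, PUT2 and CAR2 had positive means, 0.25 for PUT2 and 0.22 for CAR2, and UGA2 a negative one. A median with ASP3 counted as 1 gene was not computed. The median of the list was −0.56 on array 1, 0.11 on array 2 and 0.23 read as never turned. Above the array median on both arrays were 3 of the 9 (31.6% of all features), and below it on both were 0 (25.3% of all features). CAR1, arginase, and DUR1,2, urea amidolyase, were highest at 0.49 ± 0.03 and 0.29 ± 0.18. ASP3-2 gave −0.44 ± 0.32 and UGA2, of the breakdown of gamma-aminobutyrate, −0.73 ± 1.18 (SD, n = 2 each).

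Of 16 regulators of nitrogen and amino acid genes, 4 had a value on both arrays and 11 on none, so the factors that control this pathway were largely not measured. GCN4, the transcription factor of general amino acid control, which acts on many of these genes and is itself regulated mostly in translation, had −0.30 on array 1 and −0.34 on array 2, slightly below the median of all features on both. GAT1, an activator of nitrogen catabolite genes, gave 0.79 ± 1.24 and UGA3, an activator of genes for gamma-aminobutyrate use, −0.74 ± 0.36 (SD, n = 2 each). GAT1 had 1.67 on array 1 and −0.09 on array 2, so its mean rests on array 1. Of the 9 permeases, 3 had a value on both arrays and 2 on array 2 only. Among the 3, GNP1, a glutamine permease, was highest at 0.39 ± 0.99 and MEP2, an ammonium permease, lowest at −0.71 ± 1.12 (SD, n = 2 each). For GNP1 and MEP2 the arrays disagreed in sign. The 2 permeases with array 2 only were DIP5, at −1.95, and CAN1, at −0.08, so the lowest permease value on that array was that of DIP5. The glutathione genes had a median of 0.31 over 2 of 3, and of −0.49 read as never turned. GLR1, glutathione reductase, gave 0.63 ± 1.42 and GSH1, the first enzyme of synthesis from glutamate, −0.01 ± 0.03 (SD, n = 2 each).

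The features whose pair of values lay nearest to that of ASN2 were looked up by Euclidean distance over the 2 arrays among 2593 named features. They were PGI1 (distance 0.286), YJR028W (0.334), YMR046C (0.638) and YEF3 (0.675). PGI1, the phosphoglucose isomerase gene, had 3.59 on array 1 and 2.22 on array 2, and YEF3, a translation elongation factor gene, had 2.79 on array 1 and 1.81 on array 2. YJR028W had 3.23 on array 1 and 2.57 on array 2, and YMR046C had 2.83 on array 1 and 2.67 on array 2. Likeness over 2 arrays is a description of position only.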

How the data were processed

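Per the labels' protocols, cDNA of treated and untreated total RNA carried Cy5 or Cy3 and shared 1 array, and 2 arrays with swapped dyes were analysed. The authors deposited 1 table with a log2 ratio per feature and array; the scale was read from the values, since raising 2 to each gives ratios with 4 decimals (relative tolerance 3e-09). The sources used here give no channel order, scanner, normalization or reason for empty cells, and signal over background is unknown. Ratios were used as deposited, without 2 control features. Names came from a gene table of assembly R64 (5654 features matched, 553 did not); coordinates are left out, as the array's build is not named. The mean of the 2738 features with both values was tested against 0 with limma 3.58.1 in R 4.3.3 (two-sided, Benjamini-Hochberg, threshold 0.05), checked on simulated data; 2 arrays leave 1 residual degree of freedom. The genes and lists were chosen with earlier results of these data known. Named genes are all 10 genes, the 2 highest and 2 lowest of each list (the single highest and lowest of lists under 6 measured), and the 4 features nearest to ASN2. DPS1, GUS1, GLN4, GCN4, GFA1 and the ASP3 copies were named after their values were seen. The same holds for DIP5, CAN1, PUT2, CAR2, KGD1, KGD2, ODC1, ODC2, AGC1, ADE4, QNS1, ARG4 and CPA1. Alternatives were centring, scaling, quantile normalization, turned signs, other thresholds, robust moderation, matched features only, and each array left out. Plots used matplotlib 3.10.9 (Python 3.11.15).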

Additional observations from a re-analysis of the deposited data

How the results depend on the processing

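No paired analysis was possible because the arrays form a single group. With 1 array left out no test remains. Limma called 30 features after centring and scaling (29 positive, 1 negative), IDP1, DED81 and DPS1 being the pathway genes among them, and 3 with the ratios read as never turned, against 0 as deposited and in the other settings run; the cause was not tested. The 190 features past the limits of size (113 positive, 77 negative) became 88 at a 3-fold mean, 11 read as never turned, 16 so read after centring (a setting added after the data had been seen), and 320 to 634 with 1 array left out, at least 2-fold on the other alone. The positive share was 59.5% as deposited, 85.6% after centring, 83.8% after scaling and 54.5% after quantile normalization, but 36.4% read as never turned; with array 1 left out 116 were positive and 204 negative, and with array 2 left out 220 and 414, so that most were negative. The median of the 7 genes ranged from 0.06 to 0.92 with 1 array left out, and was −0.44 read as never turned and −0.46 so read after centring. The genes past the limits of size were ASN2 and AAT2 as deposited, and 0 under either reading as never turned. With Cy5 over Cy3 taken as the fixed order, ASN2 reversed to −0.53, and to −0.55 after centring, AAT2 to −0.47 and −0.50. With the opposite order these values would be positive. ASP1 changed sign to 0.004 by centring, and GDH3 is negative on array 2 alone. Of 11 medians relative to all features, of the pathway lists and the MATa markers, 8 changed sign when read as never turned, 2 without array 1 and 2 without array 2, and 0 by centring. The number of arrays, and empty cells for ASN1, GDH2 and AAT1, limit every value.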

Other observations

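The 4 copies of ASP3, the asparaginase gene repeated in the genome, are near-identical in sequence and each had its own feature. On array 1 they ranged from −0.67 to −0.56 (SD 0.0439 over the 4 copies), and on array 2 from −0.22 to −0.06 (SD 0.0741 over the 4 copies). The copies share their target, so this is the spread of repeated measurements of like sequence within an array, and it was narrower than the distance of 0.48 between the arrays' means for them, −0.61 on array 1 and −0.13 on array 2.

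Of the 20 protein-coding neighbours of the 10 genes in the order of the R64 gene table, 8 had a value on both arrays, with a median mean ratio of −0.22. VSB1, beside ASN2, had −0.95 on array 1 and 0.23 on array 2, and SED5, beside AAT2, had −0.76 on array 1 and −0.57 on array 2. VMA13, a vacuolar proton pump subunit gene beside GLN1, had the highest values of these neighbours, 1.62 on array 1 and 0.52 on array 2.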
